A study of Mus musculus with 5 samples.

Results

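Apolipoproteins, their receptors and associated lipid enzymes were examined in the dentate gyrus (DG) of the mouse hippocampus, using 9 genes chosen by symbol from the 23420 genes measured: the carriers Apod, Apoe and Clu, the receptors Lrp1, Vldlr, Lrp8 and Sorl1, and the enzymes Lpl and Elovl6. All 9 genes were present and expressed. RNA-Seq was performed on microdissected DG from wild-type male mice of the outbred CD1 strain, which the labels give as 4 months old (the study's methods give another age) and which had been housed for 4 weeks in one of the conditions. LD mice were housed alone with a locked disk, CE mice (complex environment) were housed socially with a locked disk and tunnels, and RUN mice were housed alone with a disk on which they could run. LD, CE and RUN were each 1 library of RNA pooled from 8 mice. The runners were split by distance into the 4 lowest (L-RUN) and the 4 highest (H-RUN), whose RNA was pooled again for a library each, so that both pools came from the mice of RUN. The mice of CE differed from those of LD in both company and tunnels, and pooling hides the differences between mice.

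Brain cells exchange cholesterol and other lipids in lipoprotein particles that are built around apolipoproteins, which in the brain are made largely by glia. Receptors of the LDL receptor family on neurons and glia take up these particles, and Vldlr and Lrp8 are also the receptors for reelin, a secreted protein that guides neuronal positioning and modulates synapses. Sorl1, a sorting receptor with Vps10 and LDL receptor repeats, routes cargo such as the amyloid precursor protein within the cell, while Lpl hydrolyses triglycerides of lipoproteins and Elovl6 elongates saturated and monounsaturated fatty acids.

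The promoters of Apod, Sorl1 and Elovl6 are shown because these were the genes of the group with the largest differences between libraries. Sequences were from RefSeq on GRCm38.p6, where 7 of the 9 genes were matched (Clu and Lpl were not), and are written 5′ to 3′ on the strand of the gene. They end at the transcript start for Apod (chr16:31314809-31315058, minus strand) and Sorl1 (chr9:42124298-42124547, minus strand), and at the start of the annotated gene for Elovl6 (chr3:129532136-129532354, plus strand). Capitals mark the motifs that were found.
Apod: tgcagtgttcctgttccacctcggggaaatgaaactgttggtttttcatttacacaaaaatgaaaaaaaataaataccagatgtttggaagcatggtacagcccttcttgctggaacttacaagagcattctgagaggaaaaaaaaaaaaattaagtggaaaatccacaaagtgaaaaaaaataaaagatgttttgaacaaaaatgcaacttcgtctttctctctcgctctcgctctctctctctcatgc
Sorl1: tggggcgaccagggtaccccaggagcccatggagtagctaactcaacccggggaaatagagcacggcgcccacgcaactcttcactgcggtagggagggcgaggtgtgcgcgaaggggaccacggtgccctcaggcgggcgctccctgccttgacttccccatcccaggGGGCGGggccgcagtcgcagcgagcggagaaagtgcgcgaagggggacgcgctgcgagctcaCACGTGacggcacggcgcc
Elovl6: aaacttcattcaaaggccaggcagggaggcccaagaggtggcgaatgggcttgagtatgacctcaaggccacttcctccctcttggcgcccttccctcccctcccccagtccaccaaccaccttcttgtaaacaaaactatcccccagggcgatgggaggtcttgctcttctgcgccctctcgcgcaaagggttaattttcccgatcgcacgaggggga
The 250 bases before the start were searched on both strands for the GC box (GGGCGG), the CCAAT box (CCAAT), the E-box (CACGTG), the TATA box (TATAAA), the cAMP response element (TGACGTCA) and the sterol response element (TCACCCCA). In Sorl1, a GC box began at position -81 and an E-box at position -19, counted from the transcript start, and they did not overlap. Among all 32851 promoters of the same length, 32.7% held a GC box and 6.02% an E-box, while 33.8% held a CCAAT box, 12.4% a TATA box, 1.55% a cAMP response element and 1.34% a sterol response element. None of these letters were found in the Apod and Elovl6 windows. The GC content was 36.4% with 4 CpG for Apod, 69.6% with 26 CpG for Sorl1 and 56.4% with 11 CpG for Elovl6, beside medians of 52.4% and 6 CpG over all promoters. These matches describe the sequence only, and no binding was measured.

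Values were regularized log (rlog) values, which DESeq2 gives on the log2 scale after shrinking each gene's values towards its mean, so a difference between libraries understates the change of weakly expressed genes. With 1 library per group there is no replicate check and no p-value for any difference. The error stated here is a technical SD, obtained from how far RUN departed from the average of its component pools in genes of like expression. It covers the preparation and sequencing of the RUN, L-RUN and H-RUN libraries, but not variation between mice. Effects particular to the LD or CE library are not in it either. For the 9 genes it was 0.022 to 0.036 for a difference between libraries. The study's cut-off of 0.3 in size was used to call a difference. All comparisons with LD share the same LD library, and the depth of the libraries is unknown. In this tissue, 12 of 12 granule neuron markers were expressed (mean rlog value of at least 5 over the 5 libraries), with mean rlog values of 10.8 to 14.2. Among the other marker lists, 20 of 22 genes of leptomeningeal fibroblasts were expressed, against 5 of 14 for the choroid plexus. In both of these lists, no gene was at 0 in all libraries.

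Corrected for transcript length, Apoe and Clu were the most abundant of the 9 genes. The mean rlog value less log2 of the length in kb was 14.7 for Apoe and 13.3 for Clu, above 99.9% and 99.4% of expressed genes. The same measure was 9.79 for Lrp1, 9.60 for Lpl, 9.29 for Apod, 9.24 for Lrp8, 8.66 for Vldlr, 8.34 for Sorl1 and 7.66 for Elovl6. The carriers therefore ranged from among the most abundant transcripts of the DG to an intermediate level, and the receptors were above 58.4% (Sorl1) to 83.6% (Lrp1) of expressed genes.

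Against LD, the group differed most in L-RUN, through Apod, which was higher, and Sorl1 and Elovl6, which were lower. In L-RUN, 1 of the 9 genes was higher and 2 were lower by at least the cut-off, while 0.797% of the 13550 expressed genes were higher and 2.33% lower. In RUN, the same 3 genes passed, 1 higher and 2 lower, beside 0.362% of expressed genes higher and 0.952% lower. In CE, 0 of the 9 genes passed in either direction, where 0.332% of expressed genes were higher and 0.266% lower. H-RUN also had 0 of the 9 genes past the cut-off, with 0.354% of expressed genes higher and 0.472% lower. The 9 genes were chosen with earlier results of these data known, so their counts cannot be read as an excess over these shares. The median difference of the 9 genes was -0.02 (CE), -0.07 (H-RUN), -0.08 (RUN) and -0.10 (L-RUN), and the median of all expressed genes lay between -0.0035 and -0.0013. The other 6 genes stayed within 0.16 over all 5 libraries.

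**Figure D1:**
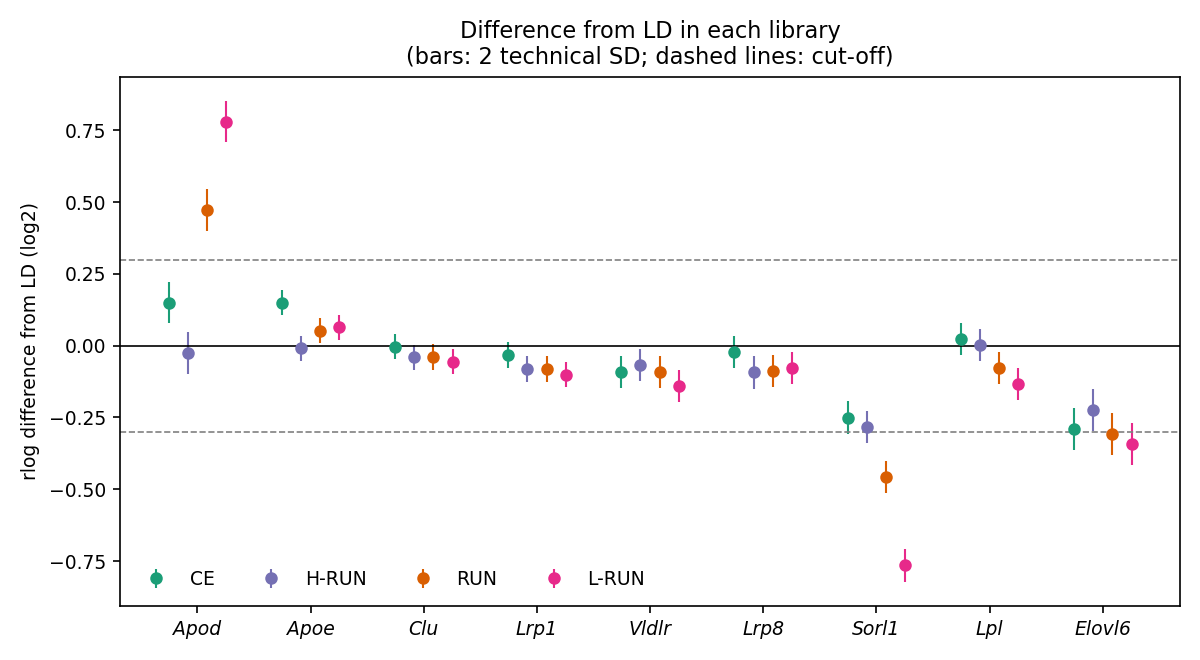
Difference of the rlog value from LD (vertical axis, log2) for each of the 9 genes (horizontal axis) in CE, H-RUN, RUN and L-RUN, with bars of 2 technical SD and dashed lines at the cut-off of 0.3. Apod in RUN (0.47) and L-RUN (0.78) lies above the upper line, and Sorl1 in RUN (-0.46) and L-RUN (-0.77) well below the lower line. Elovl6 lies close to the lower line in CE (-0.29), RUN (-0.31) and L-RUN (-0.34), while in H-RUN (-0.22) its bar does not reach that line.

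Among the carriers, Apod separated the libraries most. Apod (chr16:31296192-31314808) is a lipocalin that binds small lipids such as arachidonic acid and is known in the brain from glia and from fibroblasts of the meninges. Its rlog values were 10.07 (LD), 10.22 (CE), 10.04 (H-RUN), 10.54 (RUN) and 10.85 (L-RUN). The low runners were thus highest, RUN lay between its component pools, and LD and H-RUN were lowest and differed by less than the technical SD (-0.02 against 0.036). Compared to LD, the difference was 0.78 in L-RUN (1.72-fold), 0.47 in RUN (1.39-fold) and 0.15 in CE (1.11-fold). By increase, Apod ranked 6 among the 13550 expressed genes in L-RUN and 7 in RUN. Each gap in the order L-RUN, RUN, CE and LD exceeded 2 technical SD. With CE as the baseline in place of LD, Apod was still past the cut-off in L-RUN (0.63) and RUN (0.32).

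Markers of leptomeningeal fibroblasts, the cells of the membranes that cover the brain, moved with Apod. The list was chosen with earlier results of these data known, so the counts that follow are not a separate check. Over all expressed genes, 0.797% were higher by the cut-off in L-RUN, 0.362% in RUN and 0.332% in CE, and 0.472% were lower in H-RUN. Of the 20 expressed markers, 15 were higher by the cut-off in L-RUN, 9 in RUN and 4 in CE, while H-RUN had 0 higher and 2 lower. Named after their values were seen, the 4 in CE were Ptgds (0.30), Col1a2 (0.45), Col1a1 (0.39) and Dcn (0.37), and the 2 in H-RUN were Ogn (-0.68) and Dcn (-0.52). Dcn is also in the list of CA1 and CA3 pyramidal neuron markers, where Fibcd1 had differences of 0.31 in CE and -0.52 in H-RUN. Bok, in the same list, went the other way (-0.13 in CE and 0.41 in H-RUN). Of the 13 markers in that list, 6 were above LD and 7 below in each of CE and H-RUN, with medians of -0.03 and -0.02. The median difference of the leptomeningeal markers from LD was 0.10 (CE), -0.01 (H-RUN), 0.23 (RUN) and 0.49 (L-RUN). The summed level of all 22 markers differed from LD by 0.21 (CE), -0.12 (H-RUN), 0.76 (RUN) and 1.27 (L-RUN) on the log2 scale, and without Ptgds, the largest contributor, by 0.15 (CE), -0.12 (H-RUN), 0.23 (RUN) and 0.56 (L-RUN). In L-RUN, Ptgds, which makes prostaglandin D2, was higher by 1.97, the growth factor gene Igf2 by 1.096, the matrix proteoglycan gene Fmod by 1.01, the sulfate transporter gene Slc13a4 by 0.83, the retinoic acid synthesis gene Aldh1a2 by 0.76 and the matrix Gla protein gene Mgp by 0.71. The part of these cells in the Apod result was not tested, and in pooled tissue more cells of a type and more RNA per cell cannot be told apart. Oligodendrocyte markers, another source of Apod, had 0 of 14 genes past the cut-off in any group against LD, with a median of -0.16 in L-RUN. Over all expressed genes, 0.598% (CE) to 3.13% (L-RUN) passed in either direction, so a count of 0 does not set so short a list apart. The part of oligodendrocytes in the Apod result was not tested either.

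**Figure D2:**
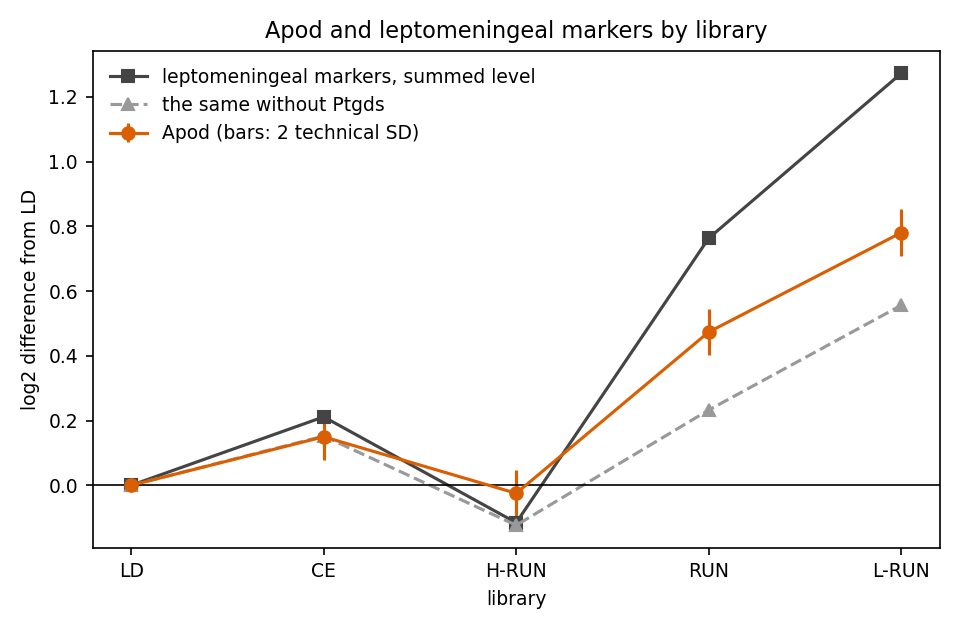
Difference from LD (vertical axis, log2) of Apod (circles, bars of 2 technical SD), of the summed level of 22 leptomeningeal fibroblast markers (squares) and of that sum without Ptgds (triangles) in the 5 libraries on the horizontal axis, LD being 0 by definition. All 3 series are highest in L-RUN (0.78, 1.27 and 0.56) and at or below LD in H-RUN (-0.02, -0.12 and -0.12).

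The expressed genes with the profile closest to that of Apod over the 5 libraries, by the root mean square difference of centred values, were Slc6a13 (0.035), Mgp (0.039) and Aebp1 (0.039). Slc6a13, a GABA and taurine transporter, was higher than in LD by 0.69 in L-RUN and 0.41 in RUN, and Aebp1, a matrix-associated protein, by 0.71 and 0.39. Both Slc6a13 and Mgp are among the leptomeningeal markers above, a list chosen with earlier results of these data known.

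The other carriers varied little. Apoe (chr7:19696109-19699188), the main apolipoprotein of brain lipoproteins, had rlog values of 15.13 (LD), 15.28 (CE), 15.12 (H-RUN), 15.18 (RUN) and 15.19 (L-RUN). CE was highest, at 0.15 above LD (1.11-fold) and 0.09 above L-RUN, while LD and H-RUN differed by 0.01, less than the technical SD of 0.022. Clu (chr14:65968483-65981547), a secreted chaperone that is also a component of lipoproteins, had the narrowest range of the 9 genes. Its values were 14.15 (LD), 14.14 (CE), 14.11 (H-RUN), 14.11 (RUN) and 14.09 (L-RUN), and no neighbours in this order were more than 2 technical SD apart. Of 14 markers of astrocytes, the main source of both, 0 passed the cut-off in CE, where 0.598% of expressed genes passed. At that share, a count of 0 does not set so short a list apart. In L-RUN, 1 of the 14 was higher and 2 were lower by the cut-off, where 3.13% of expressed genes passed. The summed level of these markers differed from LD by -0.10 (CE), -0.03 (H-RUN), -0.12 (RUN) and -0.22 (L-RUN). Their median difference was 0.04 (CE), 0.01 (H-RUN), -0.06 (RUN) and -0.08 (L-RUN), so sum and median differed in direction in CE and H-RUN. The most abundant markers weigh most in the sum.

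Among the receptors, Sorl1 was the only one of the 4 past the cut-off. Sorl1 (chr9:41964720-42124297, 48 exons in the longest transcript) had rlog values of 12.11 (LD), 11.86 (CE), 11.82 (H-RUN), 11.65 (RUN) and 11.34 (L-RUN). LD was highest, CE and H-RUN did not differ beyond 2 technical SD, and RUN and L-RUN followed in steps of 0.17 and 0.31, both larger than 2 technical SD. The difference from LD was -0.77 in L-RUN (a fold of 0.588), -0.46 in RUN (0.728), -0.28 in H-RUN (0.821) and -0.25 in CE (0.841). Counted from the lowest difference, it ranked 4 among the expressed genes in L-RUN, 17 in RUN, 76 in H-RUN and 94 in CE. Sorl1 was thus below LD in each of the other 4 libraries, and past the cut-off in RUN and L-RUN. With CE as the baseline, the difference of Sorl1 was past the cut-off in L-RUN (-0.52) but short of it in RUN (-0.21).

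The profiles nearest to that of Sorl1 were those of Grin2b (root mean square difference 0.018), which encodes a subunit of the NMDA receptor, D10Bwg1379e (0.020) and Megf9 (0.024). In L-RUN, their differences from LD were -0.72, -0.73 and -0.75. The exons of Sorl1 share 185 bp with those of an antisense gene, Gm16214, and the counting is not stated to use the strand, so reads from the antisense gene cannot be told apart there.

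The other 3 receptors were below the cut-off in every library. A correction for transcript length turned the direction of Lrp1 in all comparisons with LD, of Lrp8 in some and of Vldlr in none. Lrp1 (chr10:127538161-127621148), a large endocytic receptor for Apoe and many other ligands, had rlog values of 13.75 (LD), 13.72 (CE), 13.67 (H-RUN), 13.67 (RUN) and 13.65 (L-RUN). The differences of the 3 running libraries from LD were between -0.10 and -0.08, against a technical SD of 0.022. Vldlr (chr19:27216484-27254231) had values of 11.73 (LD), 11.64 (CE), 11.66 (H-RUN), 11.64 (RUN) and 11.59 (L-RUN), with LD above each of the others by more than 2 technical SD. Lrp8 (chr4:107802261-107876840), the other reelin receptor, had values of 12.03 (LD), 12.004 (CE), 11.93 (H-RUN), 11.94 (RUN) and 11.95 (L-RUN). The running libraries lay close together for Lrp8 and differed from LD by -0.09 to -0.08, while the difference of CE was -0.02. The largest of these differences was that of Vldlr in L-RUN (-0.14). After the trend with transcript length was removed, Lrp1 turned to 0.05 (CE), 0.0031 (H-RUN), 0.04 (RUN) and 0.06 (L-RUN). Lrp8 turned to 0.02 in CE and 0.01 in L-RUN but stayed below LD in RUN (-0.02) and H-RUN (-0.05). Vldlr stayed below LD but was within 2 technical SD of it in all 4 libraries.

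Of the enzymes, Elovl6 stood out by its level in LD. Elovl6 (chr3:129532355-129638495) had rlog values of 10.46 (LD), 10.17 (CE), 10.24 (H-RUN), 10.16 (RUN) and 10.12 (L-RUN). LD was 0.22 above the next library, H-RUN, and the other 4 libraries lay within 0.12 of each other, with no neighbours more than 2 technical SD apart. The difference from LD was -0.34 in L-RUN and -0.31 in RUN, past the cut-off, and -0.29 in CE and -0.22 in H-RUN, short of it. Both calls ended when the trend with transcript length was removed (-0.27 in L-RUN and -0.25 in RUN), and the call in RUN also ended with quantile normalization (-0.29). It ranked 42 from the lowest difference in CE, 119 in RUN, 178 in H-RUN and 224 in L-RUN. Because these values rest on the same LD library, they are not separate observations: with CE in its place, the difference was 0.07 (H-RUN), -0.02 (RUN) and -0.05 (L-RUN). Elovl6 shares 34 bp of exon with the antisense gene Gm35986.

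The nearest profiles to that of Elovl6 were those of C230091D08Rik (0.020), Add2 (0.023) and Pds5a (0.023). Lpl (chr8:68880491-68907448) had rlog values of 11.67 (LD), 11.70 (CE), 11.68 (H-RUN), 11.60 (RUN) and 11.54 (L-RUN). The low runners were lowest, with a difference from LD of -0.13, and LD, CE and H-RUN lay within the technical SD of 0.028.

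Low and high runners were then compared directly, since these pools share no mice and no control library. Apod was higher in L-RUN by 0.81 (1.75-fold) and Sorl1 was lower (-0.48, a fold of 0.716), so that 1 of the 9 genes was higher and 1 lower by the cut-off, beside 0.561% of expressed genes higher and 0.974% lower. The differences of Lpl (-0.14), Elovl6 (-0.12), Vldlr (-0.07) and Apoe (0.07) were below the cut-off but each beyond 2 technical SD. For Clu (-0.01), Lrp1 (-0.02) and Lrp8 (0.02), the difference was smaller than the technical SD. Removal of the trend with length took Apoe (0.04) and Vldlr (-0.01) within 2 technical SD and Lrp1 (0.07) and Lrp8 (0.06) beyond them, and quantile normalization took Vldlr (-0.05) within and Clu (0.05) and Lrp1 (0.05) beyond, which turned the direction of Clu (quantile normalization) and Lrp1 (both). In this comparison, 16 of 20 leptomeningeal markers were higher in L-RUN by the cut-off.

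The RUN library gave a second measurement of the same RNA. For Apod, RUN was 0.04 above the log2 of the mean of both pools on the linear scale (10.54 against 10.50), and for Sorl1 it was 0.05 above (11.65 against 11.60). For the other 7 genes, the departure was at most 0.03 in size, and for all 9 it was within 2 SD of such residuals.

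**Figure D3:**
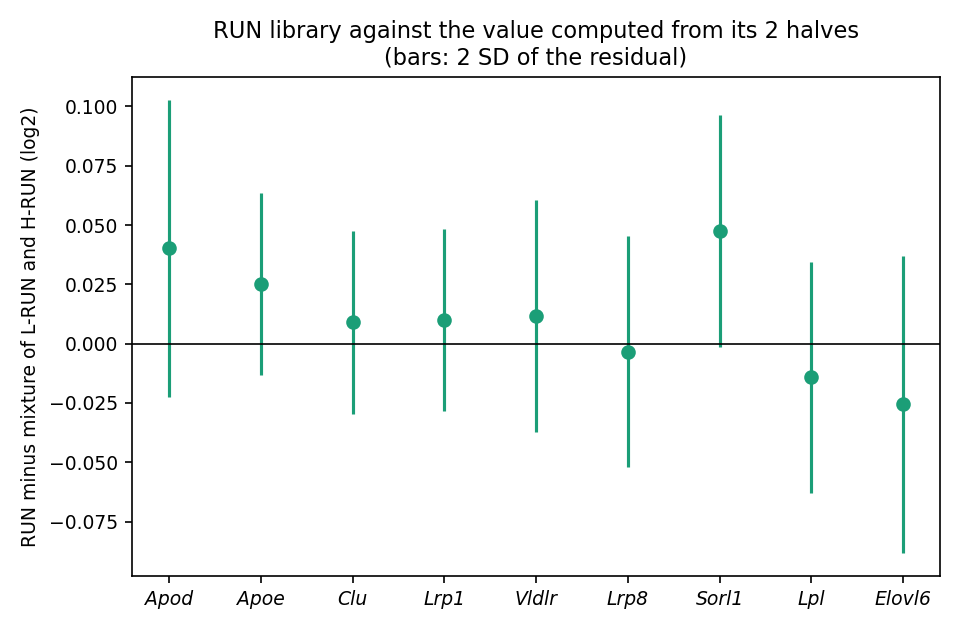
Measured RUN value minus the value computed from equal parts of L-RUN and H-RUN (vertical axis, log2) for the 9 genes on the horizontal axis, with bars of 2 SD of this residual in genes of like expression. Every bar reaches 0, and the largest departure is that of Sorl1 (0.05).

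Transcript length moved with the differences in these libraries. In L-RUN, the median difference from LD was 0.08 for the 2300 expressed genes with a longest transcript under 2000 bp, 0.00049 from 2000 to under 5000 bp, -0.08 from 5000 to under 10000 bp and -0.15 for the 349 genes of 10000 bp or more. The trend was not particular to L-RUN. Under 2000 bp, the median was 0.04 (CE), 0.04 (H-RUN) and 0.06 (RUN), and at 10000 bp or more -0.08 (CE), -0.08 (H-RUN) and -0.12 (RUN). All of these share the LD library. The receptors have long transcripts, of 14888 bp for Lrp1, 10715 bp for Sorl1, 7971 bp for Vldlr and 6627 bp for Lrp8. After the trend with length was removed, the L-RUN difference was -0.63 for Sorl1 and 0.74 for Apod (2074 bp), both past the cut-off, and the other receptors had the values given above. Among the 425 expressed genes within 1.2-fold of the length of Sorl1, the median was -0.14 and Sorl1 was the lowest in L-RUN, while 7 genes including Sorl1 were as low or lower in RUN. In 106 genes within 1.2-fold of the length of Lrp1, the median was -0.15, below that of Lrp1 itself. The part of length in these results was not tested further.

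**Figure D4:**
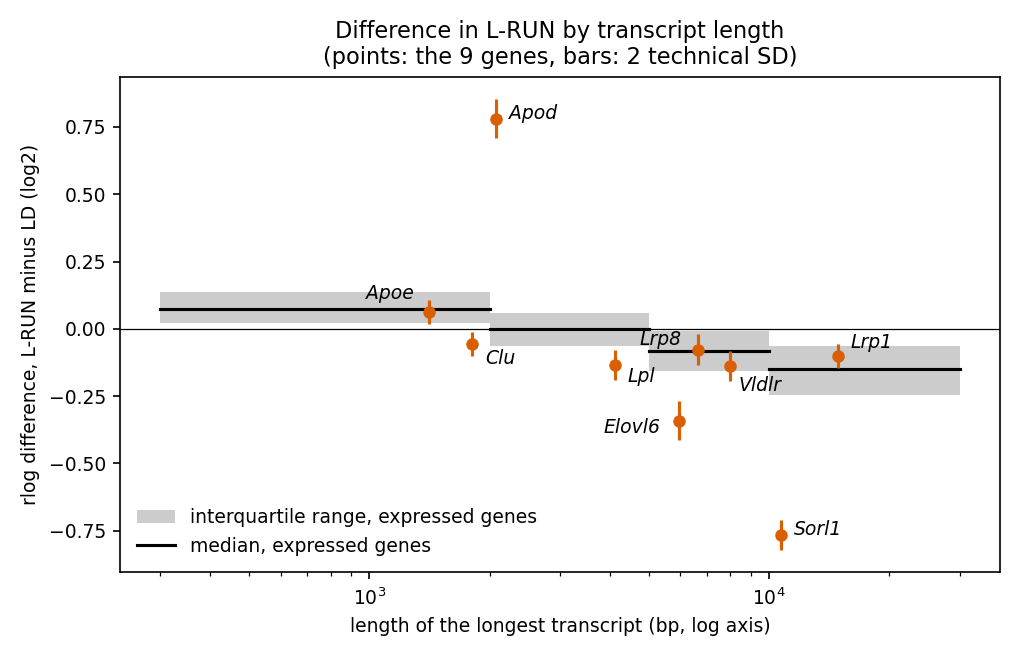
Difference between L-RUN and LD (vertical axis, log2) against the length of the longest transcript (horizontal axis, bp, log scale), with points and bars of 2 technical SD for the 9 genes, and the median (black line) and interquartile range (grey) of expressed genes in 4 length classes, the outer classes being drawn to fixed limits. Apod (0.78), Elovl6 (-0.34) and Sorl1 (-0.77) lie outside the grey band of their class, as do Clu and Lpl by less, while Apoe, Lrp1, Vldlr and Lrp8 lie inside theirs.

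Beyond the 9 genes, 118 expressed genes of 7 lists of lipid genes were examined. Over all expressed genes, 0.598% passed the cut-off against LD in CE, 0.827% in H-RUN, 1.31% in RUN and 3.13% in L-RUN, higher or lower. Of the 118, only Lrp1b and Scarb2 passed, both in L-RUN, which does not exceed that share. Of 24 apolipoprotein genes, 6 were expressed, Apoa2, Apoa5 and Apoc4 were at 0 in all libraries, and only Apod passed the cut-off against LD in any group. In the LDL receptor and Vps10 receptor families, 20 of 22 genes were expressed, and Sorl1 (RUN and L-RUN) and Lrp1b (L-RUN) were those past the cut-off, both lower. Lrp1b, a close relative of Lrp1 with a transcript of 16294 bp, differed from LD by -0.44 in L-RUN, -0.29 in RUN, -0.20 in H-RUN and -0.20 in CE. The median of this family was -0.02 (CE), -0.04 (H-RUN), -0.06 (RUN) and -0.09 (L-RUN), and after the trend with length was removed it was -0.03 in L-RUN. Of the 19 expressed genes of the reelin pathway and the partners of its receptors, 0 passed in any group, and the median was -0.11 in L-RUN, or -0.07 after that removal in the 18 with a length. Among 18 expressed genes of cholesterol efflux and lipoprotein remodelling, Scarb2, a lysosomal membrane protein, was lower in L-RUN (-0.31) and no other passed. After the trend with length was removed, 2 of the 5 lipid genes called in L-RUN, Apod and Sorl1, were past the cut-off.

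Cholesterol synthesis (25 expressed genes) and lipases with fatty acid uptake (16 expressed genes, Lpl included) had 0 genes past the cut-off in any group, and their medians in L-RUN were -0.06 and 0.02. At the shares over all expressed genes given above, a count of 0 does not set such short lists apart. In fatty acid synthesis, elongation and desaturation, Elovl6 was the only one of 23 expressed genes to pass, and the median was -0.08 in L-RUN and, in the 19 genes with a length, -0.04 after the trend with length was removed.

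Markers of the remaining cell types were read mainly in L-RUN, where the 9 genes differed most. In that library, 3.13% of all expressed genes passed the cut-off against LD. Of 12 granule neuron markers, C1ql2 and Plk5 were higher and Prox1 was lower by the cut-off (0.37, 0.36 and -0.41), of 13 markers of CA1 and CA3 pyramidal neurons, Fibcd1, Wfs1, Mpped1 and Spink8 were lower (-0.46, -0.33, -0.33 and -0.30), and of 14 astrocyte markers, Gjb6 was higher (0.34) and the glutamate transporter genes Slc1a2 and Slc1a3 were lower (-0.36 and -0.30). In mural cells in L-RUN, 1 of 10 was higher (Vtn, 0.43), and among 13 microglia, 12 endothelial and 5 expressed choroid plexus markers 0 passed in L-RUN. In the other libraries, 0.598% (CE), 0.827% (H-RUN) and 1.31% (RUN) of expressed genes passed, higher or lower. Of the pyramidal neuron markers, 2 were higher in CE (Dcn and Fibcd1) and 1 was lower in RUN (Fibcd1, -0.46). In H-RUN, 1 of them was higher (Bok, 0.41) and 2 were lower (Dcn and Fibcd1). The granule neuron marker C1ql2 was higher in RUN (0.37) and H-RUN (0.40), and the choroid plexus marker Ttr was higher in CE (0.62). The part of these cell types in the values of the 9 genes was not tested.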

How the data were processed

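RNA-Seq was measured in 5 libraries of mouse DG, with groups taken from the labels. Per the labels and methods, polyA RNA was prepared with a TruSeq kit, base calls came from CASAVA 1.8.2, and the authors trimmed adapters, mapped reads to mm10 with TopHat2 2.0.10, ran HTSeq to count reads per RefSeq gene and normalized the libraries together in DESeq2 1.10.1. The deposited values are regularized log values (log2), 1 for each gene in each library. Counts were not used here, so the depth is unknown, no count model was fitted and the shrinkage could not be undone.

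Differences were taken between libraries as deposited, with a cut-off of 0.3 as in the study. Genes with a mean of at least 5 over the 5 libraries were called expressed (13550 of 23420). The technical SD was computed from RUN minus the log2 mean of its component pools (averaged as linear values), by the median absolute deviation in each of 10 deciles of expression. The variance of this residual was taken as 1.5 times that of a library and that of a difference as 2 times, which assumes equally noisy libraries and an equal mixture. Over all expressed genes it was 0.0365. Summed marker levels were sums of 2 to the power of the rlog value.

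Transcript lengths and gene positions were those of GENCODE vM21 on GRCm38, by symbol (94.2% of expressed genes matched), and the trend with log10 length was removed by lowess (fraction 0.3). Genes named beside the 9 were list genes past the cut-off, at most the 6 largest per list, and the 3 nearest profiles of each member with a range of at least 0.3. Outside this rule, leptomeningeal markers past the cut-off in CE and H-RUN were named after their values were seen. Apolipoprotein genes at 0 in all libraries and antisense genes overlapping members were also named. The members and the lists were chosen with earlier results of these data known. Alternatives were a cut-off of 0.4, centring on the median, quantile normalization, removal of the length trend, other baselines, a minimum mean of 7 and a mixture of log values. Scripts were tested on simulated data. Python 3.11.15, numpy 2.4.6, pandas 2.3.3, statsmodels 0.14.6 and matplotlib 3.10.9 were used.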

Additional observations from a re-analysis of the deposited data

How the results depend on the processing

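The values of the 9 genes against LD were recomputed 162 times in all over centring on the median, quantile normalization, removal of the length trend, a baseline of LD and CE averaged and CE alone as baseline, the last chosen after seeing the data. Each value was counted once per alternative. The values past the cut-off, those of Apod, Sorl1 and Elovl6 in RUN and L-RUN, gave 30 recomputations. All 30 kept their direction and 22 stayed past the cut-off. None of the 132 recomputations of values below the cut-off passed it, and 69 of the 162 moved by more than the technical SD. With CE as baseline, 1 of the 9 genes passed in RUN in place of 3, Sorl1 being at -0.21. Elovl6 fell short of the cut-off in RUN after quantile normalization (-0.29), removal of the length trend (-0.25) and against LD and CE averaged (-0.16), and in L-RUN under the latter 2 of these (-0.27 and -0.20). The cut-off of 0.4 left Apod and Sorl1.

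The lipid lists, whose alternatives were chosen after seeing the data, had 5 genes past the cut-off in L-RUN, 2 after removal of the length trend and 3 at a cut-off of 0.4, and in H-RUN 1 in place of 0 with CE as baseline. For L-RUN minus H-RUN, quantile normalization gave 0.145 for Apoe, 0.0511 for Clu and 0.0516 for Lrp1. Removal of the length trend gave 0.0367 for Apoe, -0.0407 for Clu, 0.0654 for Lrp1, -0.0142 for Vldlr, 0.0610 for Lrp8, -0.41 for Sorl1 and -0.0807 for Elovl6. Of these, Clu and Lrp1 under quantile normalization and Lrp1 with the length trend removed turned direction, all from less than the technical SD. Apart from the smaller set of genes at a higher cut-off, the cause of these moves was not tested. No paired analysis was possible because each group has 1 library, and for the same reason no library could be left out of a group. Without counts, the precision that depth allows cannot be stated.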
